A study of Mus musculus with 8 samples.

Results

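Creatine genes and the sulfate and dicarboxylate carriers of the tubule were followed in kidneys taken whole from 8-day-old mice, with and without a Kctd1 deletion in the nephron lineage. The 10 genes were selected by symbol in a deposited TPM table of 47729 genes, and they were picked on account of their known roles with the knockout and wildtype levels of these kidneys already seen. Their differences between the groups are therefore given as a description, with no p-value, and nothing is read from whether a member was called. They comprise Gatm, Gamt, Slc6a8, Ckb and Ckmt1 for creatine, Slc13a1, Slc13a2 and Slc13a3 of the SLC13 family, and Slc26a1 and Slc26a6 of the SLC26 family. All 10 were among the 18548 genes kept by the filter on low counts, with 162 to 17023 counts per library.

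The study held 4 knockout libraries (genotype Six2Cre+KCTD1fl/fl, described as nephron specific in the labels) and 4 libraries from littermate controls, called wildtype. Six2 drives Cre in nephron progenitors, so glomerular epithelium and the tubule up to the connecting segment lie within its lineage, while collecting duct, stroma, vessels and blood cells lie outside it. The labels do not say which alleles the controls carried, whether each library came from a separate animal, or which sex the mice were. Any p-value here therefore reflects only how far the libraries of a group scatter, and that scatter may be technical.

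Creatine is made in a pair of steps shared between organs. The kidney carries out the first: GATM transfers the amidino group of arginine to glycine in mitochondria of the proximal tubule, and the guanidinoacetate formed is methylated by GAMT, largely in liver. SLC6A8 takes creatine up with sodium and chloride, and creatine kinases of the cytosol (CKB) and the mitochondrial intermembrane space (CKMT1) exchange phosphate between ATP and creatine. In the proximal tubule SLC13A1 recovers filtered sulfate and SLC13A2 filtered citrate and other dicarboxylates at the apical membrane. SLC13A3 brings dicarboxylates in across the basolateral membrane, where they feed organic anion exchange. SLC26A1 moves sulfate and oxalate at the basolateral membrane, and SLC26A6 exchanges chloride for oxalate, formate and other anions at the apical one.

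Libraries held 14457760 to 20741076 counts. Kctd1, the targeted gene, stood at 22.4, 25.4, 25.8 and 23.5 CPM (counts scaled to library size with TMM factors) in knockout libraries 1 to 4. The wildtype libraries 1 to 4 gave 32.1, 28.9, 32.6 and 32.6 CPM, all above the knockouts, and edgeR did not call the difference (Benjamini-Hochberg adjusted p = 0.279). In knockout 2 the ribosomal Rn18s-rs5 took 5.39% of the counts, the highest share of the 8 libraries, and Xist was read in quantity in just knockout 2 and wildtype 3 (81994 and 101295 counts, at most 151 elsewhere). The TPM values of knockout 2 lay lower across genes (median deviation -0.38 on the log2 scale), so levels are compared between libraries in CPM and between genes in TPM. The 20 proximal tubule markers, all detected, summed to 11833 to 13503 CPM in knockout and 12184 to 12979 CPM in wildtype. Skeletal muscle markers, whose creatine kinase is Ckm, summed to at most 4.35 CPM. Brown fat was not absent: its defining gene Ucp1 ranged from 15.1 to 127 CPM in knockout and 30.9 to 114 CPM in wildtype. Of the marker sums, those of distal convoluted tubule (455 to 543 against 796 to 868 CPM), podocytes (797 to 992 against 1044 to 1237 CPM) and macrophages (88.5 to 93.6 against 93.9 to 100 CPM) were lower in every knockout library. That of intercalated cells was higher (374 to 412 against 319 to 352 CPM), and the part these play in the values below was not tested. Gene by gene the macrophage markers were mixed, with 2 higher and 3 lower and a median log2 fold change of -0.03. All 6 markers of distal convoluted tubule and all 6 of podocytes were lower (medians -0.53 and -0.31). In whole kidney RNA, fewer cells of a type and less RNA per cell cannot be told apart.

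Gatm, Ckmt1 and Slc13a3 were the members whose 2 groups of libraries did not overlap, and all 3 lie on chromosome 2. Over all genes tested, groups did not overlap for 2.06% with knockout lower and 1.97% with knockout higher. The bases before the 3 start sites are shown as examples with and without the letters that AP-2 transcription factors bind in general. KCTD1 is known to repress these factors. The 3 genes were picked by the contrast already seen, and members with overlapping groups also hold such letters. Nothing about the differences is therefore read from the letters. The capitals mark matches to GCCNNNGGC, the AP-2 core, which reads the same on both strands. Sequences are from RefSeq on GRCm38.p6, the assembly that mm10 denotes, 5′ to 3′ on the gene's strand, and stop where the annotated gene begins. That of Gatm is chr2:122611304-122611527 (minus strand), that of Slc13a3 chr2:165473231-165473447 (minus strand) and that of Ckmt1 chr2:121357526-121357713 (plus strand).
Gatm: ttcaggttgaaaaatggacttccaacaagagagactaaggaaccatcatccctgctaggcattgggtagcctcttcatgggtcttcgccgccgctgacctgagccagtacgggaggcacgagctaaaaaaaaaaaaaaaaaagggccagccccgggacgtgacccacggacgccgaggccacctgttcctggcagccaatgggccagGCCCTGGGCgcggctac
Slc13a3: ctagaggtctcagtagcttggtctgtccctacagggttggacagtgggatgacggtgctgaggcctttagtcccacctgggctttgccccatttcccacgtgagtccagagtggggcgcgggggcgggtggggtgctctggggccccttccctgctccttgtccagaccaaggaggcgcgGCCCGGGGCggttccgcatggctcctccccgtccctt
Ckmt1: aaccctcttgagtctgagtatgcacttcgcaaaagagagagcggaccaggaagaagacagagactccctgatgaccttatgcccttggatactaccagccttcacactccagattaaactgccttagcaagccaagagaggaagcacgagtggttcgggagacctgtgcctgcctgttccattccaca

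Over the full 250 bases before the RefSeq start, Gatm held 2 such matches, the first bases of which lay 43 and 10 bases before the start. Slc13a3 also held 2, at 70 and 17 bases, and neither of the 2 start sites of Ckmt1 held any. Gamt, Slc13a2 and Ckb each held 1, and Slc26a1 and Slc26a6 none, so 5 of the 8 members with a promoter window held the letters. Counted by window this was 5 of 10, as Ckmt1 and Slc26a1 have 2 windows each. Slc6a8 and Slc13a1 make up the rest of the 10 members. Of all 32851 promoter windows of this length 13.7% held a match, and 18.2% of the 11137 whose GC content lay within 53.6% to 67.6%, the range of the member windows with one. That range was set by windows with a match alone, so the member count is not to be read against the second share. A core of the HNF1 site (GTTAAT, either strand), in 6.43% of all windows, and the HNF4 letters CAAAGTCCA, in 0.384%, were in none of the member windows. A match describes the sequence and does not show that a factor binds there.

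The gene of the first enzyme of creatine synthesis was lower in every knockout library, with the largest difference of the 10 members when all 8 libraries were used. Without wildtype 2 it came after Slc13a3 (-0.40 against 0.44 on the log2 scale). Gatm (ENSMUSG00000027199, chromosome 2 from 122594467 to 122611303, minus strand, GRCm38) measured 636, 652, 630 and 637 CPM in knockout 1 to 4. It measured 953, 888, 836 and 746 CPM in wildtype 1 to 4. The 4 knockout libraries lay within a narrow band, with a coefficient of variation of 1.45%, and the wildtype libraries spread over 10.2%. Knockout averaged 639 ± 9.24 CPM and wildtype 856 ± 87.6 CPM (SD, n = 4 each), which puts knockout kidneys at 74.6% of the wildtype level (log2 fold change -0.42 ± 0.08 SE). Wildtype 4 was the lowest of its group and the nearest to the knockouts.

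Gamt, the methyltransferase of the second step (ENSMUSG00000020150, chromosome 10 from 80258151 to 80261012, minus strand), gave a smaller difference with overlapping groups. It measured 12.1, 12.6, 11.2 and 12.8 CPM in knockout and 15, 14.2, 14.9 and 11.9 CPM in wildtype (log2 fold change -0.20 ± 0.12 SE). Here too wildtype 4 was the lowest of its group, and it lay among the knockout values. Per transcript length the ratio of Gatm to Gamt was 14.8 ± 0.773 in knockout and 17.3 ± 0.956 in wildtype TPM (SD, n = 4 each), again with overlap.

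The creatine transporter gene Slc6a8 (ENSMUSG00000019558, chromosome X from 73673150 to 73682502, plus strand) was close to even between the groups. It measured 141, 129, 136 and 125 CPM in knockout and 144, 157, 129 and 132 CPM in wildtype (log2 fold change -0.08 ± 0.08 SE, and -0.02 without wildtype 2). The libraries with Xist reads, knockout 2 and wildtype 3, both measured 129 CPM and were not set apart by this X-linked gene.

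The mitochondrial creatine kinase gene was lower in knockout and the cytosolic one was not. Ckmt1 (ENSMUSG00000000308, chromosome 2 from 121357714 to 121363737, plus strand) measured 47.7, 43.1, 51.4 and 47.5 CPM in knockout. In wildtype it measured 63.4, 63.3, 58.5 and 54.7 CPM. The groups did not overlap, and wildtype 4 was again the lowest of its group. Knockout averaged 47.4 ± 3.4 CPM and wildtype 60 ± 4.21 CPM (SD, n = 4 each), a log2 fold change of -0.34 ± 0.08 (SE). Ckb (ENSMUSG00000001270, chromosome 12 from 111669361 to 111672338, minus strand) measured 84.4, 83.6, 113 and 94.9 CPM in knockout and 87.4, 94.6, 101 and 76.1 CPM in wildtype. Its groups overlapped throughout (log2 fold change 0.07 ± 0.12 SE). Within each library, the TPM ratio of Ckmt1 to Ckb was 1.27, 1.16, 1.03 and 1.13 in knockout and 1.63, 1.51, 1.31 and 1.62 in wildtype, with no overlap. Ckmt1 overlaps Strc on the opposite strand in the annotation, and although the library kit keeps strand, the sources used here do not give the strand setting of the counting.

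Of the 5 SLC13 and SLC26 members, Slc13a3 was the 1 that was higher in every knockout library. The gene of the basolateral dicarboxylate carrier (ENSMUSG00000018459, chromosome 2 from 165405028 to 165473230, minus strand) measured 186, 176, 176 and 199 CPM in knockout. In wildtype it measured 130, 169, 142 and 134 CPM, wildtype 2 coming closest to the knockouts. Knockout averaged 184 ± 10.9 CPM and wildtype 144 ± 17.4 CPM (SD, n = 4 each), with a log2 fold change of 0.36 ± 0.09 (SE), or 128% of wildtype. The gene of the apical dicarboxylate carrier, Slc13a2 (ENSMUSG00000001095, chromosome 11 from 78397087 to 78422217, minus strand), measured 26.7, 18.8, 23.9 and 21.3 CPM in knockout and 22.3, 22.3, 22 and 24.7 CPM in wildtype. The wildtype libraries lay inside the knockout range (log2 fold change -0.01 ± 0.12 SE). Slc13a2 and Slc13a3 overlap the opposite-strand transcripts Slc13a2os and Gm14437.

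The sulfate carrier genes overlapped between the groups. Slc13a1, the apical entry step (ENSMUSG00000029700, chromosome 6 from 24088283 to 24168092, minus strand), measured 95.9, 134, 125 and 162 CPM in knockout and 125, 98.8, 105 and 119 CPM in wildtype (log2 fold change 0.21 ± 0.15 SE). Knockout 1 was the lowest of the 8 libraries and knockout 4 the highest, and the coefficient of variation was 21.2% in knockout against 10.9% in wildtype. The log2 fold change was 0.08 without knockout 4 and 0.33 without knockout 1. Slc26a1, the basolateral exit step (ENSMUSG00000046959, chromosome 5 from 108669878 to 108675569, minus strand), measured 69.8, 80.6, 70.3 and 60.6 CPM in knockout and 55.5, 61, 71.2 and 57.2 CPM in wildtype (log2 fold change 0.20 ± 0.11 SE). Without knockout 2 it was 0.13. Slc26a1 overlaps Idua on the opposite strand. Slc26a6, the apical anion exchanger gene (ENSMUSG00000023259, chromosome 9 from 108853283 to 108913049, plus strand), measured 15.6, 14.3, 15.6 and 14.2 CPM in knockout and 13.5, 18.6, 20.6 and 12.9 CPM in wildtype. The 4 knockout libraries fell between a low wildtype pair (1 and 4) and a high one (2 and 3), at a log2 fold change of -0.14 ± 0.16 (SE), which was -0.01 without wildtype 3 and -0.24 without wildtype 4.

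**Figure D1:**
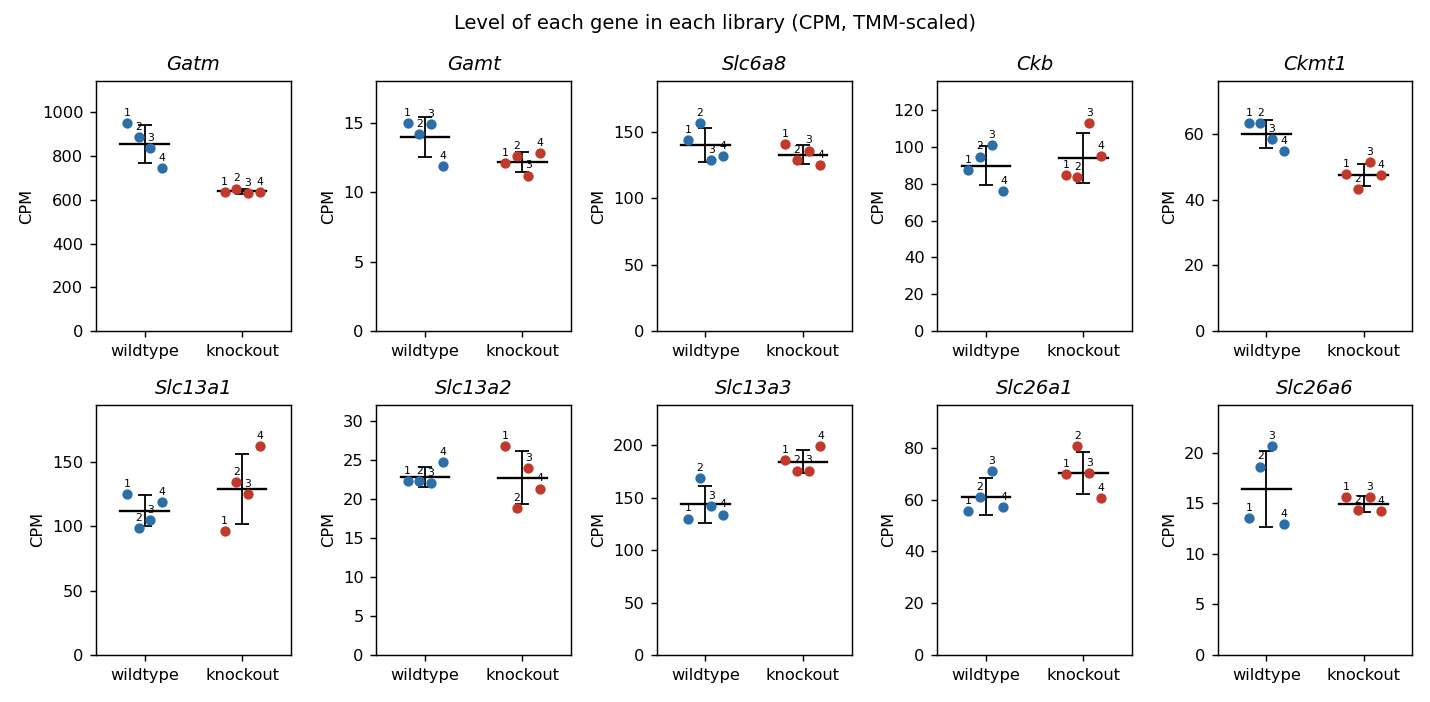
CPM of each of the 10 genes (vertical axes, from 0) in the 4 wildtype (blue) and 4 knockout (red) libraries, numbered by replicate, with mean and SD in black. Gatm and Ckmt1 are lower and Slc13a3 higher in all 4 knockout libraries, and the other 7 genes overlap.

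Of the 10 members 0 passed edgeR's quasi-likelihood test at a Benjamini-Hochberg adjusted threshold of 0.05, where 0.0809% of the 18548 genes did. DESeq2 called 2, Gatm and Ckmt1, both lower, where it called 0.653% of 23423 genes in either direction. Groups did not overlap with knockout lower for 2 members, against 2.06% of all genes, and with knockout higher for 1, against 1.97%. The members were picked with this contrast in view, so nothing is read from these counts. Their median log2 fold change was -0.05, with 4 higher and 6 lower, beside 0.001 over all genes tested. Their median absolute log2 fold change was 0.20, beside 0.11 over all genes.

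Leaving out knockout 2 moved Gatm to -0.43, Ckmt1 to -0.30 and Slc13a3 to 0.38 on the log2 scale. Leaving out both libraries with Xist reads gave -0.44, -0.31 and 0.38. Without wildtype 4, Gatm was at -0.48, Ckmt1 at -0.38 and Slc13a3 at 0.33, and edgeR called Gatm. The directions of Ckb, Slc13a2 and Slc26a6 turned under some settings.

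**Figure D2:**
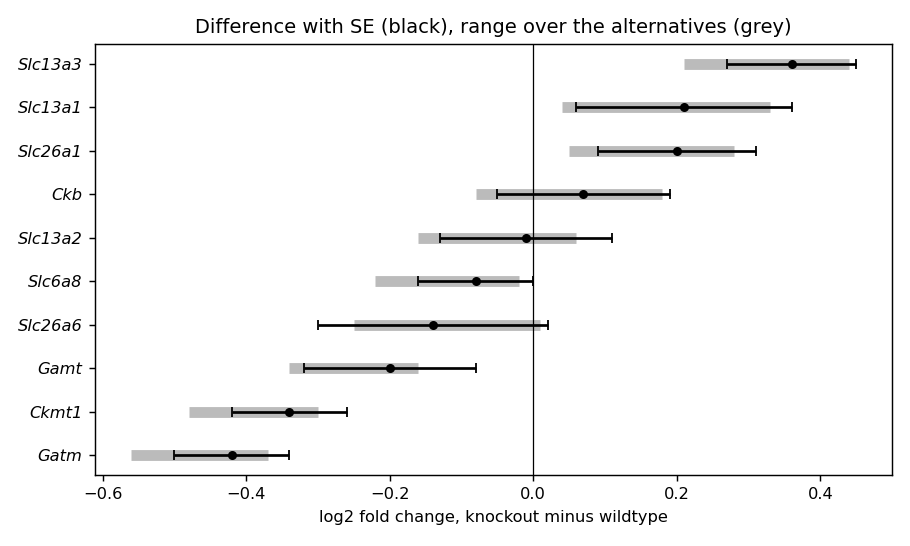
Log2 fold change of each gene, knockout minus wildtype (horizontal axis), with its SE (black) and the lowest to highest value over 20 alternative settings (grey). Gatm, Ckmt1, Gamt and Slc6a8 lie below 0 over the whole range and Slc13a3, Slc13a1 and Slc26a1 above it. The ranges of Ckb, Slc13a2 and Slc26a6 cross 0.

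Near Gatm and Ckmt1 on chromosome 2, wildtype 4 lay within the knockout range for Sord and Casc4, and between the other wildtype libraries and the knockouts for Sqor. Gatm and Ckmt1 are 1230730 bases apart. Sord, the sorbitol dehydrogenase gene 377 kb from the Gatm start, measured 460, 353, 436 and 424 CPM in knockout and 197, 198, 196 and 418 CPM in wildtype. Wildtype 4 thus lay within the knockout range, more than 200 CPM above the other 3 wildtype libraries. Sqor (Sqrdl in the deposited table), the sulfide oxidising enzyme gene on the other side of Gatm (154 kb), measured 51.2, 48.8, 53.3 and 49.1 CPM in knockout and 23.7, 25.1, 28.8 and 42.8 CPM in wildtype. Casc4, 744 kb away, measured 73.9, 78.4, 77.2 and 77.2 CPM in knockout and 56.6, 63.3, 46.3 and 78.3 CPM in wildtype. Sord and Casc4 did not pass with edgeR (Benjamini-Hochberg adjusted p = 0.706 and 0.761), nor did Sqor (0.28), which DESeq2 called (adjusted p = 0.00804). Tubgcp4 measured 30.5 CPM in wildtype 4, 20.7 to 26 CPM in the other wildtype libraries and 31.8 to 36.3 CPM in knockout. Eif3j1 measured 24.2, 20.5 to 23 and 25 to 29.9 CPM in the same order. All of these neighbours were chosen after their values were seen.

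Of the 43 other genes tested within 2000000 bases of the Gatm start, Ckmt1 among them, 5 (11.6%) had groups that did not overlap and 9 (20.9%) an unadjusted edgeR p under 0.05. For Ckmt1 these were 5 (7.14%) and 15 (21.4%) of 70, many of them the same genes since the windows share most of their span. Over all genes tested the shares were 4.03% and 6.18%. Around Slc13a3, 42793725 bases from Gatm, they were 8.82% and 11.8% of 68, and around the other 7 members at most 7.69% and 9.4%. DESeq2, which called 0.653% of all genes, called 2 around each of Gatm, Ckmt1 and Slc13a3 and 1 around each of Slc6a8, Ckb, Slc26a1 and Slc26a6. The 2 around Gatm and around Ckmt1 include the other of this pair, and Sqor is the second in both. edgeR called 1 neighbour of Slc26a6 and 0 of the other 9 members. Gatm and Ckmt1 share with the chosen neighbours Sord, Sqor, Casc4, Tubgcp4 and Eif3j1 that wildtype 4 was the wildtype library nearest the knockouts. Wildtype 4 also lay within the knockout range for Gamt on chromosome 10 and for Cbs, which is not among the 43 genes. How often wildtype 4 was nearest the knockouts over all genes was not counted. It was the lowest of its group for 5 of the 10 members, Gatm and Ckmt1 among them. For Ckb and Slc26a6, also among these, it lay below every knockout library. Whether the mice differed in inherited sequence around Gatm and Ckmt1, apart from the Kctd1 deletion, was not tested, nor was its part in the values of the 2 genes.

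**Figure D3:**
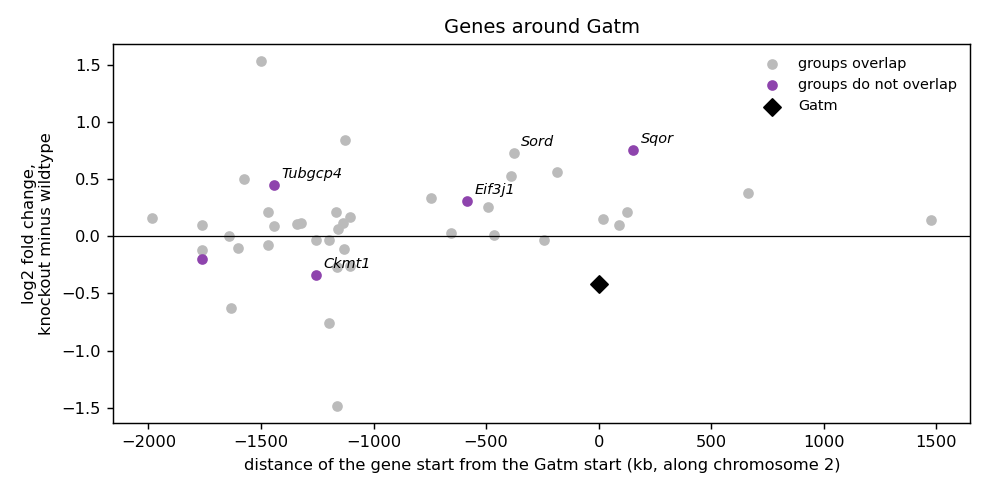
Log2 fold change, knockout minus wildtype (vertical axis), of 43 genes by the distance of their start from that of Gatm in kb (horizontal axis), with genes whose groups do not overlap in purple and Gatm as a black diamond. Sqor and Sord beside Gatm lie at 0.75 and 0.73, on the other side of 0 from Gatm at -0.42 and Ckmt1 at -0.34.

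Levels per transcript length, taken over both groups together, spanned a wide range. Over all 8 libraries mean TPM was 188 for Gatm, 47.8 for Ckmt1, 36 for Ckb, 34.9 for Slc6a8, 33.5 for Slc13a3 and 31.2 for Slc13a1. It was 16.7 for Slc26a6, 11.7 for Gamt, 9.02 for Slc26a1 and 5.1 for Slc13a2. Gatm thus stood apart at the top, and the later enzyme of the same pathway, Gamt, was among the weak members. The order was taken from these same values, so neighbours in it are compared by their differences within each library and given no p-value. In 6 of the 9 neighbouring pairs the higher gene was above the other in 8 of 8 libraries.

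Ckmt1 stood 0.39 ± 0.25 above Ckb on the log2(TPM + 0.1) scale (mean difference ± SD, n = 8), so the mitochondrial kinase gene exceeded the cytosolic one per length in every library. This SD includes a difference between the groups, as the TPM ratio of Ckmt1 to Ckb averaged 1.15 in knockout and 1.52 in wildtype. Slc13a1 stood 0.90 ± 0.43 above Slc26a6, and Slc26a1 0.83 ± 0.27 above Slc13a2. Among Ckb, Slc6a8, Slc13a3 and Slc13a1 the neighbours did not differ beyond their spread. Their differences were 0.04 ± 0.21 (Ckb over Slc6a8), 0.06 ± 0.27 (Slc6a8 over Slc13a3) and 0.11 ± 0.30 (Slc13a3 over Slc13a1), and the first-named gene was above in 3, 4 and 5 of 8 libraries. For Slc6a8, Ckb, Slc13a3 and Slc13a1, mean wildtype TPM was 37.4, 36.7, 30.8 and 30.4, and mean knockout TPM 32.4, 35.4, 36.3 and 31.9. Within both groups the order of these 4 differed between libraries, so no difference in order is read between the genotypes.

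**Figure D4:**
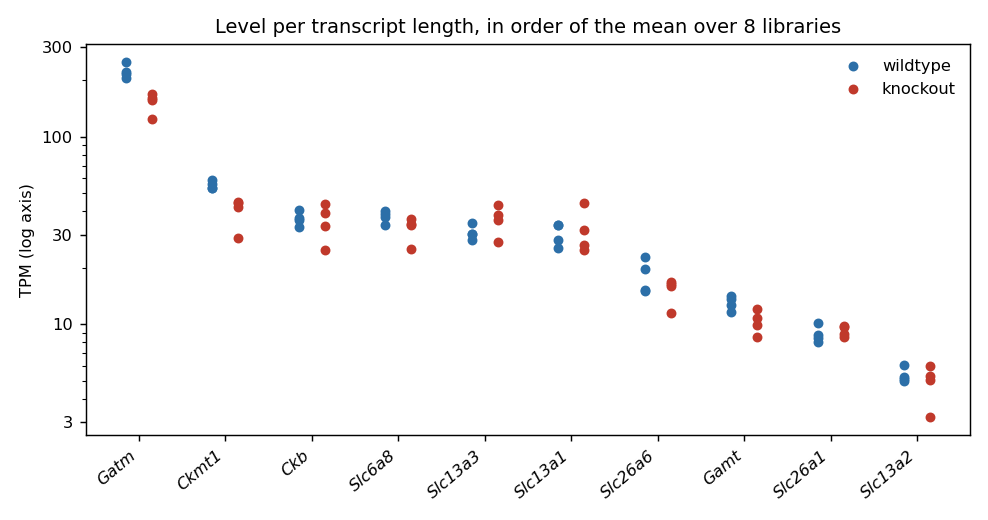
TPM (vertical log axis) of each gene in the 4 wildtype (blue) and 4 knockout (red) libraries, in the order of the mean over 8 libraries. Gatm stands alone at 124 to 251 TPM, Ckb, Slc6a8, Slc13a3 and Slc13a1 share a range of 24.9 to 44.4 TPM, and Slc13a2 is lowest at 3.18 to 6.08 TPM.

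Among the 18493 other genes with a symbol, the profile of Gatm over the 8 libraries was most like those of 1110051M20Rik, Trim45 and St6gal1. Their root mean square distances, on log2 CPM centred over the 8 libraries, were 0.0563, 0.0891 and 0.0893, where the median gene lay at 0.304. In this order they lie on chromosomes 2, 3 and 16, and measured 22.6 to 23.5, 5.67 to 6.83 and 47.5 to 50.8 CPM in knockout. In wildtype they measured 27.5 to 34.9, 7.07 to 8.83 and 53.6 to 61.9 CPM. The distance was taken over both groups, so a profile close to that of Gatm shares its difference between the groups by construction. Nothing is read from that difference. For Slc13a1 the nearest were Nr2f1, Gm3383 and 4930511M06Rik, at 0.0764, 0.088 and 0.0982, with a median gene at 0.312. Nr2f1 encodes an orphan nuclear receptor and measured 16.3 to 26.2 CPM in knockout and 15.7 to 21.9 CPM in wildtype.

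The genes around these pathways, taken as 5 lists of genes outside the 10, did not pass in either direction with edgeR. Of the 16 tested genes that supply arginine, glycine and methyl groups for creatine, 11 were above and 5 below wildtype, with a median log2 fold change of 0.07. Before adjustment, edgeR gave a p under 0.05 to 1 of those above and 1 of those below, and to 6.18% of all genes tested. Mtr, methionine synthase, measured 9.24 to 22 CPM in knockout and 9.53 to 11.8 CPM in wildtype (Benjamini-Hochberg adjusted p = 0.7 by edgeR). Cbs, cystathionine beta-synthase, measured 9.3, 4.17, 6.83 and 3.83 CPM in knockout and 12.6, 13.6, 13.2 and 4.76 CPM in wildtype (adjusted p = 0.805), wildtype 4 again lying among the knockouts.

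Of the other creatine kinases and carriers, Ckm and Ckmt2 were too weak to test, at no more than 0.389 and 0.491 CPM in any library, so the kinases of muscle added little to these kidneys. The 3 tested genes of that list had a median of 0.04. Slc6a6 and Slc6a13, which carry taurine and related amino acids, measured 189 ± 29.9 against 181 ± 29.3 CPM and 36.2 ± 2.47 against 37.8 ± 0.974 CPM (adjusted p = 0.976 and 0.942). Of the 11 other SLC13 and SLC26 genes 7 were tested (median 0.06, 5 above and 2 below wildtype, 0 at an unadjusted p under 0.05). Slc26a5, which encodes the motor protein prestin of the inner ear, was at 0 counts in all 8 libraries. Slc26a7, of intercalated cells, measured 8.15 ± 0.432 against 6.77 ± 1.15 CPM (SD, n = 4 each; Benjamini-Hochberg adjusted p = 0.859 by edgeR), and Slc26a10 measured 4.53 ± 0.827 against 5.1 ± 1.12 CPM (adjusted p = 0.942).

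All 14 genes of sulfate production and activation were tested (median 0.03, 8 above and 6 below wildtype), and 2 were higher at an unadjusted p under 0.05. Sqor measured 50.6 ± 2.08 against 30.1 ± 8.73 CPM (log2 fold change 0.75 ± 0.17 SE) and was the 1 gene of the 5 lists that DESeq2 called. Papss2, which makes the activated sulfate donor, measured 137 ± 5.6 against 120 ± 4.96 CPM with groups that did not overlap (log2 fold change 0.18 ± 0.06 SE; Benjamini-Hochberg adjusted p = 0.638 by edgeR). Of 18 genes of citrate and dicarboxylate metabolism 5 were above and 13 below wildtype (median -0.03), and 1 was higher at an unadjusted p under 0.05. That gene, the cytosolic isocitrate dehydrogenase gene Idh1, measured 309 ± 19.7 against 256 ± 16.6 CPM (adjusted p = 0.403). The mitochondrial Idh2 measured 391 ± 24.2 against 430 ± 25.4 CPM (adjusted p = 0.839). Of the 20 proximal tubule markers 0 passed with edgeR or DESeq2, 15 were above and 5 below wildtype, and their median was 0.08. Before adjustment 4 of those above and 1 of those below had an edgeR p under 0.05, where 6.18% of all genes tested did. Groups did not overlap for 3 of these markers (Slc5a2 lower, Slc22a6 and Slc22a12 higher), where this held for 4.03% of all genes tested.

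**Figure D5:**
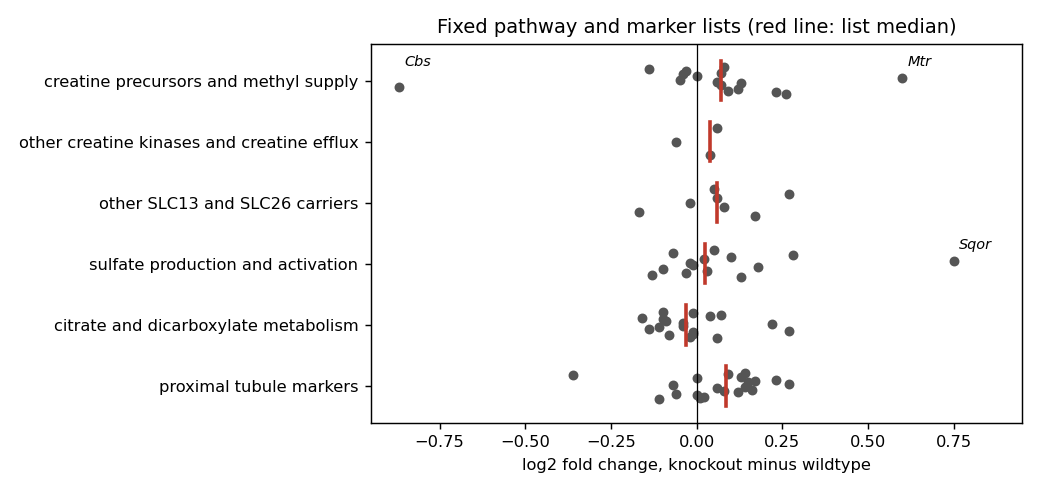
Log2 fold change, knockout minus wildtype (horizontal axis), of each tested gene of the 5 pathway lists and of the proximal tubule markers (rows), with the list median in red. The medians lie between -0.03 and 0.08, and Cbs, Mtr and Sqor are the genes beyond 0.5 in either direction.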

How the data were processed

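RNA-seq of 8 libraries from whole kidney (4 knockout, 4 wildtype) was used. The deposited files hold Salmon's estimated counts, which the authors had rounded to integers, and TPM values. Salmon (no version), DESeq2 1.14.1 and the mm10 build are named per the submitters' processing notes, and the sources used here do not give the annotation release. The count table has no gene names, so row order was used to match its 47729 rows to the TPM table's identifiers. As a check, the log2 count to TPM ratio varied between libraries by a median SD of 0.000745 (13251 genes, each library at 50 counts or more), and by 0.281 when rows were offset by 1.

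Knockout was compared with wildtype by edgeR 4.0.16 (R 4.3.3; filterByExpr, TMM, robust quasi-likelihood test, two-sided, Benjamini-Hochberg over 18548 genes, threshold 0.05), which was tested on simulated data. SE is the absolute log2 fold change over the square root of F. DESeq2 1.42.0, limma 3.58.1 and other scalings, filters and left-out libraries were alternatives. Genes named are the 10 members, Kctd1, the 2 smallest p of each pathway list where none passed, and the 3 nearest profiles to Gatm and Slc13a1. Further neighbours of Gatm were chosen after seeing values. Other genes, such as Ckm, Ckmt2, Slc26a5, Ucp1 and Xist, are named outside this rule to describe the libraries and lists. The members and lists were chosen with earlier results of these data known. Coordinates are from GENCODE M21 (GRCm38). Same-numbered libraries did not deviate together (r from -0.081 to 0.0363), so numbers were not taken as pairs.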

Additional observations from a re-analysis of the deposited data

Results flagged for a closer look

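A single library lay far from the rest of its group in 5 of the 62 gene and group combinations examined, and about 3.1 (1 in 20) would do so by chance. In wildtype 4, Sord measured 418 CPM against 196 to 198 in the other wildtype libraries, Cbs 4.76 against 12.6 to 13.6, Slc6a6 224 against 162 to 169 and Slc13a2 24.7 against 22 to 22.3. In wildtype 2, Kctd1 measured 28.9 CPM against 32.1 to 32.6. Sord was chosen after its values were seen, with wildtype 4 already known to lie apart, so the count of 5 is not to be read against chance. Cbs and Slc6a6 belong to the pathway lists.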

How the results depend on the processing

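edgeR called 15 genes, 27 with no filter on low counts, and 3 without the 2 libraries with Xist reads. DESeq2 called 153 genes, and limma on log2(TPM + 1) or log2(TPM + 0.1) called 5. Leaving out each library in turn gave 10 to 52 calls, the highest without wildtype replicate 4 and 29 without knockout replicate 3. Among the members 0 were called with edgeR, 2 with DESeq2 and 0 to 1 with a library left out (Gatm without wildtype 4). Among the pathway genes outside the members the counts were 0, 1 with DESeq2 and 0 to 1 with a library left out (Sqor without wildtype 4). With the replicate number as a block (replicate block) edgeR called 10 genes and 0 members, and 1 of 8 libraries correlated best with its own number. Over 20 alternatives Gatm ranged from -0.56 to -0.37, Ckmt1 from -0.48 to -0.30 and Slc13a3 from 0.21 to 0.44. The TPM scales moved the median of all genes to -0.106 and -0.141, so values there are lower throughout. Ckb kept its sign in 16, Slc13a2 in 15 and Slc26a6 in 19 of 20, and the other 7 members in all 20. The cause of these changes was not tested.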
